A study of Homo sapiens with 8 samples.

Results

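The suppressors of cytokine signalling were described here as 8 genes, CISH and SOCS1 to SOCS7, in K562 cells in which an inducible form of C/EBPα was or was not switched on. The members were chosen by name, with earlier results of these data known. Every probe set whose platform annotation gave exactly 1 gene symbol, equal to a member, was taken. This gave 25 of the 54675 probe sets and 8 of 19775 genes. K562 is an established human line from a chronic myeloid leukaemia that carries the BCR-ABL kinase and has erythroid features. All 8 cultures stably expressed p42-C/EBPα-ER, a long isoform of this myeloid transcription factor joined to the hormone-binding part of the oestrogen receptor, and the medium lacked phenol red and had serum stripped with charcoal. The estradiol group (n = 4) received 1 µM beta-estradiol and the vehicle group (n = 4) received ethanol, each for 6 h. The labels name no culture without the fusion and do not say whether the line was 1 clone, so an effect of the hormone itself and one of the fusion cannot be told apart here.

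SOCS proteins are the inducible brakes of cytokine signalling. A cytokine bound to its receptor activates Janus kinases (JAKs), these phosphorylate STAT transcription factors, and the STATs then switch on SOCS genes whose products bind the receptor or the kinase through an SH2 domain. A C-terminal SOCS box, shared by all members, joins elongins B and C and cullin 5 into a ubiquitin ligase that marks bound proteins for degradation. SOCS1 and SOCS3 also block JAK activity directly, while CISH and SOCS2 are classical STAT5 target genes that restrain growth hormone, erythropoietin and related receptors. SOCS4 to SOCS7 are less tied to cytokine induction and have been linked to growth factor and insulin receptors. BCR-ABL keeps STAT5 active in K562 cells.

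The promoters of CISH and SOCS1 are shown, a choice made after the values were seen. Among the members' windows only these held a motif that was searched for. Whether a motif bears on the change of either gene was not tested. RefSeq (GRCh38.p14) gave windows of 300 bases around a start site for 5 of the 8 members, CISH, SOCS1, SOCS3 (with 2 windows), SOCS4 and SOCS6. The 250 bases before the start are printed 5′ to 3′ on the minus strand, chr3:50611775-50612024 for CISH and chr16:11256205-11256454 for SOCS1. Capitals mark the STAT motif TTCNNNGAA in CISH and, in SOCS1, the motif GAAANNGAA bound by interferon regulatory factors.
CISH: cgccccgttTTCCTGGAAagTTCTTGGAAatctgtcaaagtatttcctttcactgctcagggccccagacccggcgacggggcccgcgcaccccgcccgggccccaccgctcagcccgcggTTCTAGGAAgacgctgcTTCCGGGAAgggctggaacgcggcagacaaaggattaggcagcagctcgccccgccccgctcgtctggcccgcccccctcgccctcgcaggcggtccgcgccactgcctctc
SOCS1: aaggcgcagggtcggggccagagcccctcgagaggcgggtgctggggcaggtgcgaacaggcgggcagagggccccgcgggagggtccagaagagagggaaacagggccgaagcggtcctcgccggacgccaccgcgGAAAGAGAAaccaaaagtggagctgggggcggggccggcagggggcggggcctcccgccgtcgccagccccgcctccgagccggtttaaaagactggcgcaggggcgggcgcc

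The CISH window held 4 STAT motifs, which began 241, 230, 129 and 112 bases before the start site. At least 1 such motif, on either strand, lay in 7.66% of 35116 RefSeq windows of 300 bases, and at least 4 lay in 7 of them (0.0199%). The windows of SOCS1, SOCS3, SOCS4 and SOCS6 held no STAT motif with these letters, and the C/EBP core TTGCNNAA, present in 10.5% of all windows, was in none of the members' 6 windows. The GAAANNGAA motif of SOCS1 began 113 bases before the start and was searched for after this window had been seen. It lay in 8.11% of all windows. The motif searches covered both strands, and the STAT motif reads the same on both. A match describes letters in a short window and is not a measured binding site.

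The 2 groups were compared to see which SOCS genes differed after 6 h of induction. SOCS1 rose 2.10-fold, by far the largest difference among the members. CISH fell by 0.13 and SOCS2 by 0.16 on the log2 scale, small falls that depended on nearly every array. SOCS3, SOCS4, SOCS5, SOCS6 and SOCS7 did not pass the test, with differences from −0.26 to 0.25. In all, 1 of 8 members was called higher and 2 were called lower (limma, Benjamini-Hochberg adjusted p below 0.05 over all genes), or 37.5%, where 17.9% of all genes were called, 8.29% higher and 9.6% lower. Estradiol and vehicle arrays were fully separated for 4 of the 8 members, CISH, SOCS1, SOCS2 and SOCS5, against 24.1% of all genes. Among the 25 probe sets fitted each on its own, 2 were called higher and 1 lower, where 10.4% of all probe sets were called. The median difference of the members was −0.12 on the log2 scale, against −0.03 over all genes. Of the members 5 of 8 lay below 0, or 62.5%, close to the 58.8% of all genes. In RNA of whole cultures, fewer cells expressing a gene and less RNA per cell cannot be told apart.

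**Figure D1:**
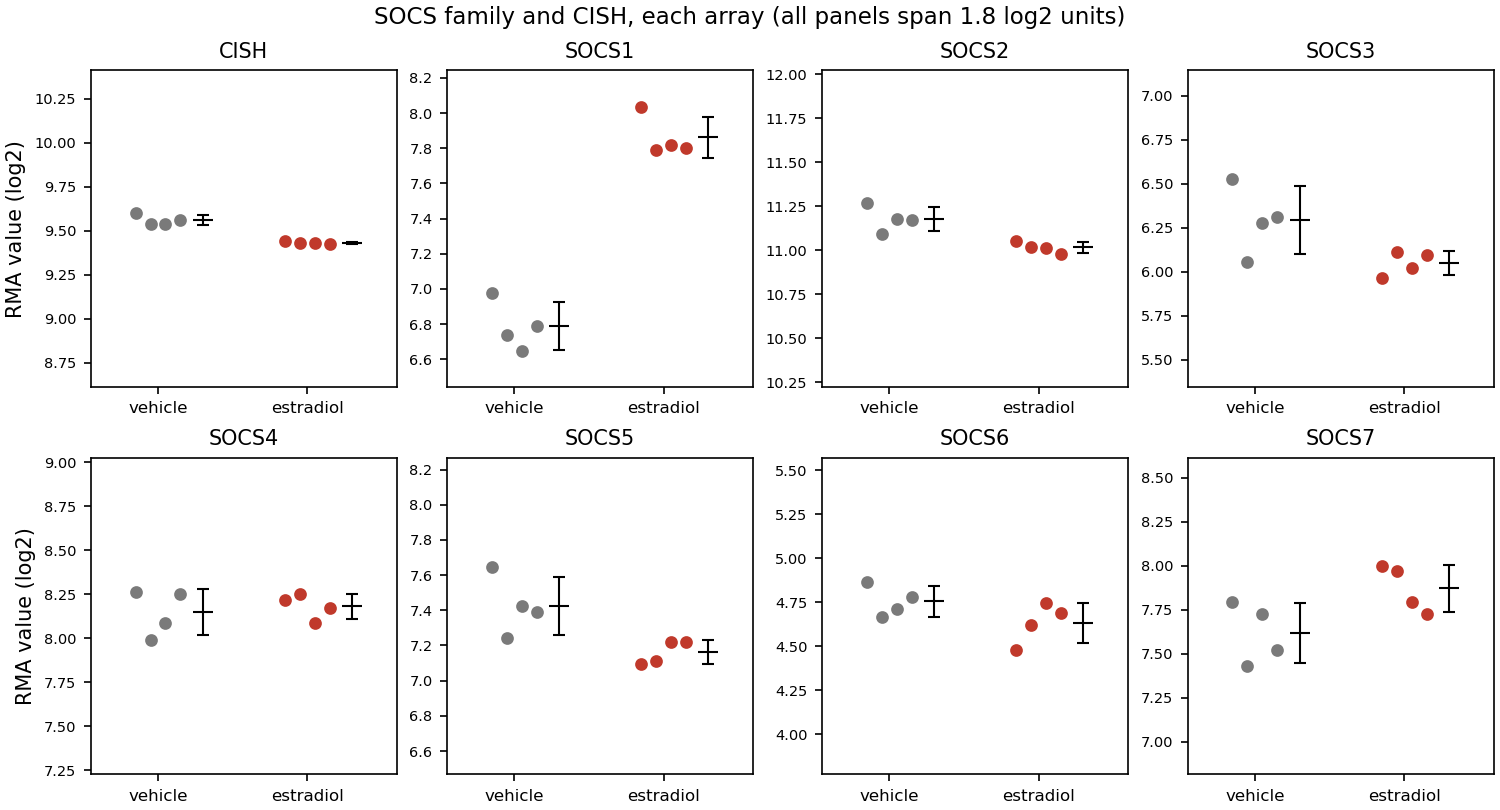
The log2 RMA value of each member (vertical axis, every panel spanning the same range) is plotted for the 4 vehicle arrays (grey) and the 4 estradiol arrays (red), replicates 1 to 4 from left to right, with the mean and SD beside them. The SOCS1 panel shows the wide gap between groups, 6.79 against 7.86 on average, while the other panels show shifts of at most 0.26; heights are not comparable between panels because probe sets differ.

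SOCS1 is the family member that shuts down JAK kinases after interferon signals. Its log2 values were 8.04, 7.79, 7.82 and 7.80 with estradiol and 6.97, 6.74, 6.65 and 6.79 with vehicle. Every estradiol array lay above every vehicle array, with 0.82 between the closest values, and replicate 1 was the highest array of each group. The means of 7.86 ± 0.12 and 6.79 ± 0.14 (SD, n = 4) differed by 1.07 ± 0.08 (SE), a 2.10-fold rise (limma adjusted p = 2.57e-05), the 132nd largest rise among 19775 genes. Without 1 array at a time the rise was 1.02 to 1.14 and passed the test each time (adjusted p from 3.57e-05 to 2.00e-04).

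The 4 probe sets of SOCS1 did not move alike. The probe set that stood for the gene and a second one were called higher in the fit of all probe sets (limma adjusted p = 3.20e-05 and 6.82e-04). On the second the log2 values were 6.64, 6.61, 6.81 and 6.67 with estradiol and 6.20, 6.14, 5.94 and 6.13 with vehicle, without overlap, a difference of 0.58 ± 0.07 (SE). The suffix of its name, x_at, means that some probes can also bind unrelated sequences. On the third the groups overlapped and differed by 0.04 ± 0.06 (95% interval −0.10 to 0.18), at means of 5.16 and 5.12, near the array medians of 4.97 to 5.08. On the fourth they differed by −0.02 ± 0.10 at means of 3.20 and 3.22, under the lower quartiles of the arrays, 3.67 to 3.74, where changes are compressed. With the mean of its 4 probe sets the gene was still called.

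CISH, a STAT5-induced inhibitor of erythropoietin and interleukin signals, was slightly lower with estradiol. Its log2 values were 9.44, 9.43, 9.43 and 9.43 with estradiol and 9.60, 9.54, 9.54 and 9.56 with vehicle. The groups did not overlap, and the estradiol arrays were nearly equal. The means of 9.43 ± 0.01 and 9.56 ± 0.03 (SD, n = 4) differed by −0.13 ± 0.04 (SE, limma adjusted p = 0.0428), 8.49% in linear terms. All 3 probe sets were lower, by 0.13 to 0.17, with groups that did not overlap, and 0 of the 3 were called among all probe sets (limma; 3 at an unadjusted p below 0.05). The probe set that stood for CISH and a second one have names that end in x_at. Some of their probes can thus also bind unrelated sequences. The call was lost without any 1 array other than vehicle replicate 2 (adjusted p from 0.0768 to 0.115), with each array centred on its median (−0.10, adjusted p = 0.315) and with the probe set of largest variance (−0.17, adjusted p = 0.110). The 4 STAT motifs printed above lie in the promoter of this gene, and whether they bear on the small difference was not tested.

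SOCS2, the STAT5 target that limits growth hormone signalling, had log2 values of 11.05, 11.02, 11.01 and 10.98 with estradiol and 11.27, 11.09, 11.17 and 11.17 with vehicle. The vehicle arrays were all higher, vehicle replicate 2 by the least. The means of 11.02 ± 0.03 and 11.18 ± 0.07 (SD, n = 4) differed by −0.16 ± 0.05 (SE, limma adjusted p = 0.0458), 10.5% in linear terms. A second probe set was 0.20 lower without overlap and was called among all probe sets (limma adjusted p = 0.0428). The third differed by 0.07 ± 0.12 at means of 3.98 and 3.91, near the lower quartiles of the arrays. The gene's call was lost without any 1 array other than vehicle replicate 2 (adjusted p from 0.0659 to 0.130), with median centring (−0.13, adjusted p = 0.246) and with the mean of its probe sets (−0.10, adjusted p = 0.271). With the probe set of largest variance, the third one, the sign turned to 0.0691. The antisense transcript SOCS2-AS1, looked at after its value was seen, differed by −0.12 ± 0.09 on its 1 probe set (limma adjusted p = 0.490).

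SOCS3, the brake on interleukin-6 and G-CSF signals, did not pass the test. Its log2 values were 5.97, 6.11, 6.02 and 6.10 with estradiol and 6.53, 6.05, 6.28 and 6.31 with vehicle. Vehicle replicate 2 lay among the estradiol arrays and the other vehicle arrays lay above them. The difference was −0.24 ± 0.09 (SE, 95% interval −0.45 to −0.04, limma adjusted p = 0.110), and all 4 probe sets were lower, by 0.11 to 0.24. On each of the 4 the groups overlapped, and 0 were called among all probe sets. The third lay near the array medians, at means of 5.04 and 5.27, and the fourth below them, at 4.06 and 4.24. Without vehicle replicate 2 the gene's difference was −0.32 and passed the test (adjusted p = 0.0156).

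SOCS5, linked to interleukin-4 and EGF receptor signalling, showed the same layout. Its log2 values were 7.09, 7.11, 7.22 and 7.22 with estradiol and 7.64, 7.24, 7.42 and 7.39 with vehicle. The groups did not overlap, but vehicle replicate 2 lay only just above the estradiol arrays. The difference of −0.26 ± 0.08 (SE) narrowly missed the threshold (limma adjusted p = 0.0568), and passed it without vehicle replicate 2 (−0.32, adjusted p = 0.0171). The other 2 probe sets were each lower by 0.10, with overlapping groups.

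SOCS7, an adaptor linked to insulin signalling, leaned the other way without passing the test. Its log2 values were 7.999, 7.969, 7.792 and 7.729 with estradiol and 7.795, 7.432, 7.728 and 7.524 with vehicle. Vehicle replicate 1 lay above estradiol replicates 3 and 4, and the other vehicle arrays lay below all estradiol arrays. The difference was 0.25 ± 0.10 (SE, 95% interval 0.04 to 0.47, limma adjusted p = 0.112), and the other 2 probe sets differed by 0.13 and 0.07. SOCS4, linked to EGF receptor turnover, ran from 8.09 to 8.25 with estradiol and from 7.99 to 8.26 with vehicle, a difference of 0.03 ± 0.07 (adjusted p = 0.834) whose sign turned with quantile normalization between arrays, −0.0034. SOCS6, an adaptor that acts on KIT and other receptor kinases, ran from 4.48 to 4.75 and from 4.67 to 4.87, a difference of −0.12 ± 0.07 (95% interval −0.28 to 0.03, adjusted p = 0.302). Its level lay below the array medians, so a change in it would be understated.

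**Figure D2:**
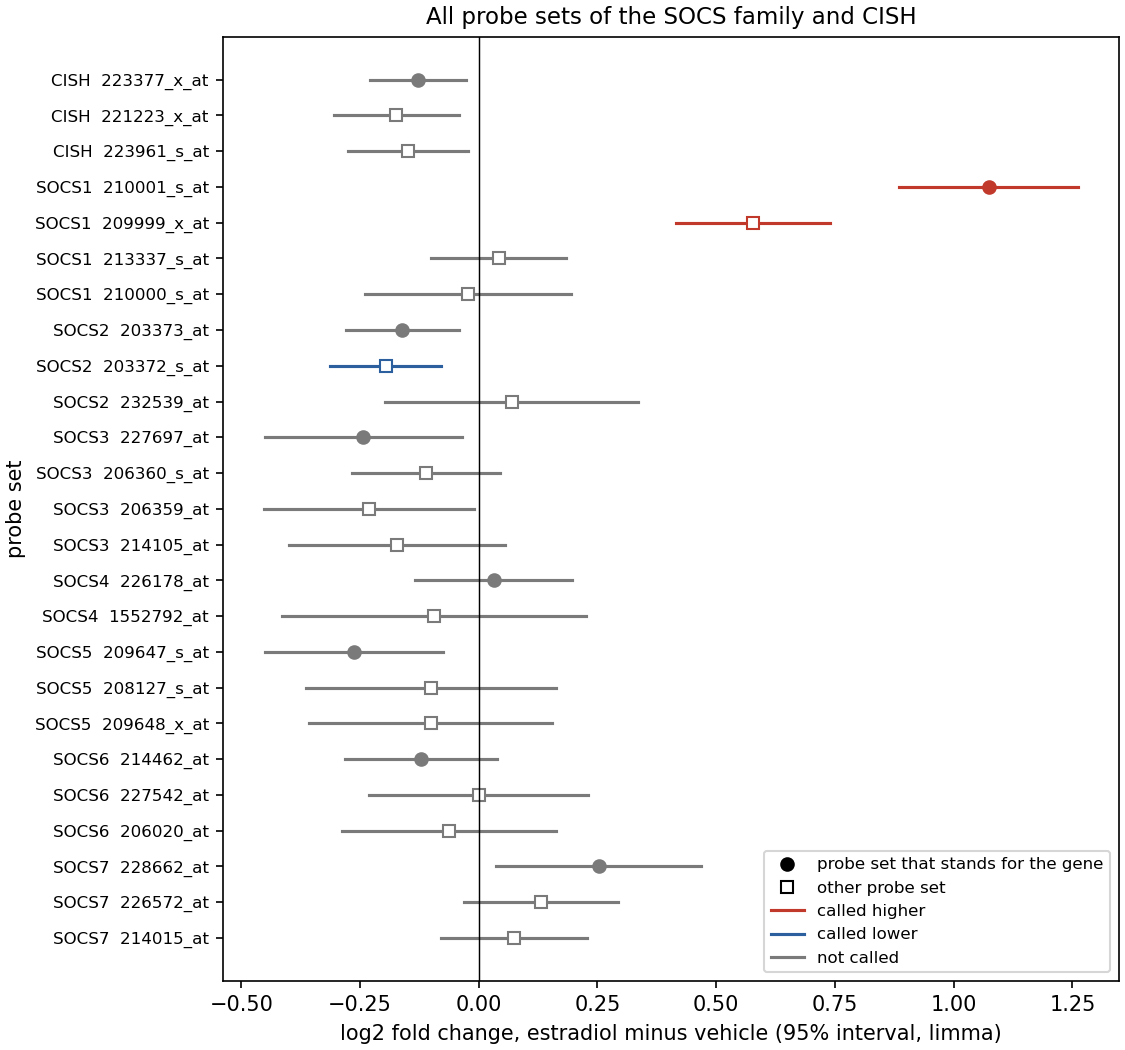
The log2 fold change of estradiol over vehicle (horizontal axis) is drawn for each of the 25 probe sets with its 95% interval from limma; filled circles stand for the gene and open squares are its other probe sets. The points of the SOCS1 probe sets at 1.07 and 0.58 lie farthest to the right, though the interval of the lower one overlaps that of a SOCS7 probe set, and the points of the CISH, SOCS3, SOCS5 and SOCS6 probe sets all lie below 0, 1 of SOCS6 by less than can be seen.

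The vehicle arrays shared a pattern across the family at the probe sets that stood for the genes. There vehicle replicate 1 was the highest of the 4 vehicle arrays for all 8 members, where it was the highest for 34.3% of all genes. Vehicle replicate 2 was the lowest for 6 members, where it was the lowest for 43.6% of all genes. On the members' other probe sets vehicle replicate 1 was the highest on some and the lowest on others. Vehicle replicate 2 was again the lowest on some other probe sets of CISH, SOCS2, SOCS4, SOCS5, SOCS6 and SOCS7. It was not the lowest on the other probe sets of SOCS1 and SOCS3. The spread at the chosen probe sets entered the difference of every member. Its part in the small falls was not tested beyond the fits that leave out an array. The 8 arrays had medians of 4.97 to 5.08, and correlations within a group were at least 0.994. Of 10 erythroid markers of K562, 7 were measured and all 7 lay above the medians of all arrays; KLF1, GATA1 and HBE1 were called lower. Of 19 measured markers of T cells, B cells, macrophages, fibroblasts and epithelial cells, 7 lay above the array medians, EPCAM the highest at 10.98 with vehicle, and 0 were called (limma; 2 at an unadjusted p below 0.05).

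The kinases and transcription factors that SOCS proteins control were measured next to them. JAK2, the kinase of the erythropoietin receptor and a direct target of SOCS1, rose 1.68-fold, while both STAT5 genes fell, STAT5A 1.55-fold and STAT5B 1.23-fold. The other 6 of 9 measured members of that list, JAK1, JAK3, TYK2, STAT3, STAT4 and STAT6, differed by −0.10 to 0.02 and were not called. The list median was −0.04 on the log2 scale.

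JAK2 had log2 values of 7.83, 7.87, 7.81 and 7.82 with estradiol and 7.08, 7.03, 7.04 and 7.18 with vehicle, without overlap. The difference was 0.75 ± 0.05 (SE, limma adjusted p = 7.84e-06). The 3 probe sets of JAK2 ranged from 0.38 to 0.75, and 2 of them were called higher among all probe sets. STAT5A, which carries BCR-ABL and erythropoietin signals to CISH and SOCS2, had 8.98, 9.04, 9.07 and 9.02 with estradiol and 9.62, 9.67, 9.71 and 9.65 with vehicle. Its groups were tight and far apart, with a difference of −0.64 ± 0.04 (adjusted p = 9.68e-06) on 1 probe set. STAT5B, the close copy of STAT5A, fell from 8.94 ± 0.03 to 8.65 ± 0.04 (SD, n = 4), by 0.30 ± 0.04 (adjusted p = 0.00103). This call rested on 1 of its 5 probe sets and was lost with the mean of all 5 (−0.13, adjusted p = 0.218).

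Among the receptors restrained by SOCS proteins 4 rose and 3 fell of 24 measured, 29.2% called against 17.9% of all genes. IL6R, the interleukin-6 binding chain, rose from 4.65 ± 0.44 to 6.30 ± 0.11 (SD, n = 4), by 1.66 ± 0.19 on the log2 scale (SE, limma adjusted p = 3.18e-04). IL4R, the interleukin-4 receptor, whose signal SOCS1 and SOCS5 can restrain, had 7.99 ± 0.08 with estradiol and 6.93 ± 0.09 with vehicle (SD, n = 4). Its groups did not overlap, and it rose 2.09-fold (1.06 ± 0.06, adjusted p = 4.08e-06). LIFR, the leukaemia inhibitory factor receptor, rose by 0.80 ± 0.15 (adjusted p = 0.00591) on 3 of 5 probe sets from a vehicle level of 4.49.

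The remaining called receptors were named after their values were seen. IFNGR1, the interferon gamma receptor chain upstream of SOCS1 induction, rose by 0.72 ± 0.05 on the log2 scale (limma adjusted p = 1.85e-05). LEPR, the leptin receptor, fell by 0.57 ± 0.10 from a level near the array medians, KIT by 0.37 ± 0.08 and the interferon receptor chain IFNAR1 by 0.20 ± 0.04. IFNAR1 lost its call with the mean of its probe sets (−0.17, adjusted p = 0.0579) and with the one of largest variance (−0.15, adjusted p = 0.475). EPOR, the erythropoietin receptor and a CISH target, differed by −0.15 ± 0.07 (adjusted p = 0.208), while 3 of its 5 probe sets were called lower among all probe sets. The list median was 0.0045 on the log2 scale.

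Of 17 measured ligands of these receptors 1 was called higher, 5.88% against 17.9% of all genes called, and 0 fell (limma; 0 lower at an unadjusted p below 0.05). IL6, the cytokine whose signal SOCS3 ends, had log2 values of 6.77, 6.79, 6.91 and 6.79 with estradiol and 6.52, 6.21, 6.62 and 6.53 with vehicle. It rose by 0.34 ± 0.08 (SE, limma adjusted p = 0.0216) without overlap, and lost its call without estradiol replicate 2, 3 or 4 (adjusted p from 0.0504 to 0.0633). IL3, IL4, IL7, IL10, IL15, IFNB1 and IFNG were not called, with mean log2 values of at most 3.83, close to or under the lower quartiles of the arrays, where changes are compressed. The list median was −0.05.

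Other inhibitors of the pathway moved both ways. Of 11 measured, 2 rose and 1 fell, 27.3% against 17.9% of all genes, with a median of 0.0042 on the log2 scale. CBL, a ubiquitin ligase that removes activated receptors, rose by 0.44 ± 0.06 (SE, limma adjusted p = 5.96e-04), on 2 of 5 probe sets. PTPN11, the phosphatase SHP2, rose by 0.16 ± 0.05 (adjusted p = 0.0402) and PIAS3, an inhibitor of STAT3, fell by 0.18 ± 0.05 (adjusted p = 0.0311). The 6 probe sets of PTPN11 ran from −0.16 to 0.36, and 2 of them were called higher among all probe sets. The PTPN11 call was lost without any 1 array other than vehicle replicate 1 (adjusted p from 0.0517 to 0.116) and that of PIAS3 without any other than estradiol replicate 4 (0.0528 to 0.0826). Both were also lost with each array centred on its median (adjusted p = 0.0782 and 0.116), PTPN11 with the mean of its probe sets (0.0706), and PIAS3 with the variance trend (0.0635) and with probe sets chosen by variance (0.0685).

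Among ligase partners of the SOCS box and other SOCS box proteins (SPSB1 to SPSB4, WSB1 and WSB2), 2 of 11 measured genes rose and 0 fell (limma; 1 lower at an unadjusted p below 0.05). This share of 18.2% was close to the 17.9% of all genes, and the median was 0.07 on the log2 scale. UBE2F, the NEDD8-conjugating enzyme that works on cullin 5, rose from 10.41 ± 0.04 to 10.95 ± 0.04 (SD, n = 4), by 0.54 ± 0.04 (SE, limma adjusted p = 3.19e-05), and all 4 of its probe sets were called higher. ELOC, elongin C, which binds the SOCS box itself, rose by 0.17 ± 0.04 (adjusted p = 0.0142), a call lost without estradiol replicate 4 (adjusted p = 0.0549). Its partner ELOB differed by 0.02 ± 0.04 and the scaffold CUL5 by 0.14 ± 0.06 (adjusted p = 0.784 and 0.133). Among all probe sets, 1 of the 4 of CUL5 was called higher. WSB1 differed by 0.16 ± 0.05 (adjusted p = 0.0841), while 2 of its 5 probe sets were called higher.

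Known STAT target genes moved in both directions. Of 14 measured, 3 rose and 5 fell, 57.1% called against 17.9% of all genes, with a median of −0.13 on the log2 scale. BCL6, a repressor, had 6.42, 6.55, 6.55 and 6.51 with estradiol and 5.24, 5.14, 5.17 and 4.96 with vehicle. It rose 2.61-fold without overlap (1.38 ± 0.06, SE, limma adjusted p = 1.34e-06), on 1 of 3 probe sets. PIM2, a survival kinase, fell from 8.83 ± 0.01 to 8.24 ± 0.06 (SD, n = 4), by 0.59 ± 0.04 (adjusted p = 1.91e-05). MCL1, an anti-apoptotic protein, rose by 0.55 ± 0.04 (adjusted p = 2.64e-05) on 4 of 6 probe sets. The activity of STAT proteins was not measured, and its part in these changes was not tested.

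The other called targets were named after their values were seen. The cyclins CCND2 and CCND1 fell by 0.44 ± 0.05 and 0.30 ± 0.08 on the log2 scale, JUNB by 0.38 ± 0.05 and ICAM1 by 0.36 ± 0.06, while the kinase PIM1 rose by 0.19 ± 0.05. CCND2 lost its call with the mean of its probe sets (−0.19, adjusted p = 0.0572) and with the one of largest variance (−0.21, adjusted p = 0.489). The CCND1 call held among the fits that left out an array only without estradiol replicate 3 or vehicle replicate 4 (adjusted p elsewhere from 0.0534 to 0.0892). That of PIM1 was lost when vehicle replicate 3 or estradiol replicate 2, 3 or 4 was left out (0.0596 to 0.0635) and with probe sets chosen by variance (0.0526). BCL2L1, also on the list, differed by 0.01 ± 0.04 and IRF1, the interferon-induced activator of SOCS1, by −0.05 ± 0.07, neither called (adjusted p = 0.872 and 0.691).

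**Figure D3:**
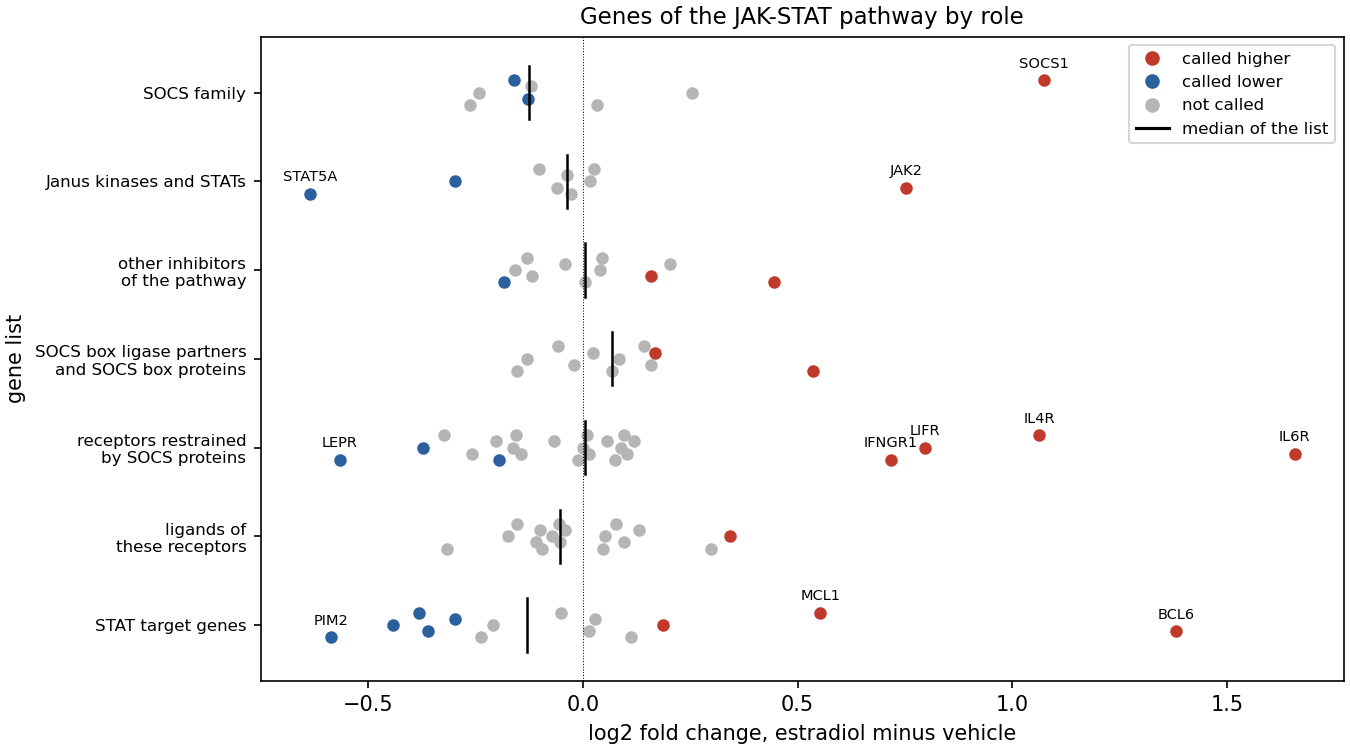
Each point is the log2 fold change of estradiol over vehicle (horizontal axis) of 1 gene, grouped by role on the vertical axis, with called rises in red, called falls in blue and the list median as a bar. SOCS1 stands apart from its own family, and rises and falls lie on both sides in the lists of kinases, receptors and STAT targets.

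**Figure D4:**
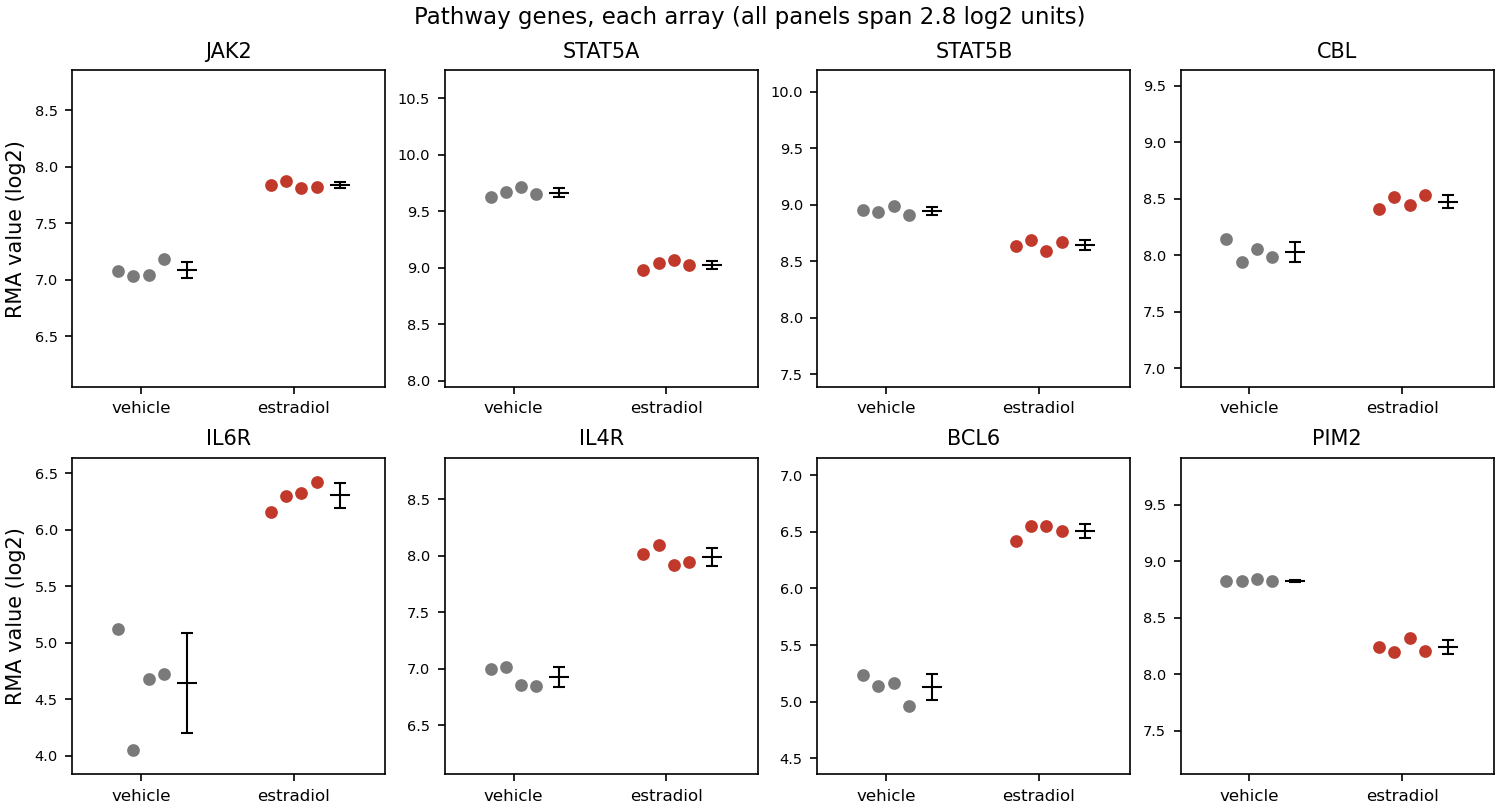
The log2 RMA values of 8 pathway genes (vertical axis, every panel spanning the same range) are shown for the 4 vehicle arrays (grey) and the 4 estradiol arrays (red), with the mean and SD beside them. JAK2, CBL, IL6R, IL4R and BCL6 are higher and STAT5A, STAT5B and PIM2 lower in every estradiol array than in every vehicle array, at this choice of probe set.

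Over all 6 lists around the family, 86 of 94 genes were measured, 13 were called higher and 11 lower, 27.9% against 17.9% of all genes, with a median of −0.02 on the log2 scale. The lists were written by role, with earlier results of these data known, and were not chosen to represent all genes. The shares called among the members and in each list are therefore descriptions and no test of the pathway.

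The genes whose profile over the 8 arrays was closest to that of each called member were found by the root mean square distance between log2 profiles, each centred on its own mean. A gene chosen this way must differ between the groups by nearly as much as the member, so its difference is no separate result. For SOCS1 they were the integrin chain ITGA4 (distance 0.07, difference 1.06 ± 0.06), the Fc receptor FCGR2A (0.07 and 1.05 ± 0.07) and the homeobox gene NKX3-2 (0.08 and 1.02 ± 0.11), all called higher by limma. For CISH they were COQ4, FBL and NANS, at distances of 0.01 to 0.02, with differences of −0.13, −0.11 and −0.12. For SOCS2 they were NVL, PRPS1 and PRPF19, at 0.02 each, with differences of −0.14, −0.15 and −0.13. Of these 6 genes 1, COQ4, was called (adjusted p = 0.0479), and it turned to 0.02 with the mean of its probe sets. Its call was also lost with median centring (adjusted p = 0.333) and without any 1 array other than vehicle replicate 2 (0.0740 to 0.143).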

How the data were processed

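Total RNA of 8 cultures was labelled with biotin and put on 1 array each, per the labels' protocols. RMA was the authors' method for the deposited log2 values, as the submitters' processing notes list it, with version, chip definition and build not given in the sources used here. RMA gives all arrays a like distribution, which hides a general shift, and it compresses changes of dim genes. Symbols came from the platform annotation, 41097 probe sets with 1 symbol, 1801 with several and 11777 with none listed; 41043 were checked by gene identifier in a RefSeq table and 0 changed. A gene was represented by its probe set with the highest mean, with no filter on dim genes. Differences are estradiol minus vehicle from limma 3.58.1 (lmFit, eBayes, two-sided, no covariate) in R 4.3.3, with Benjamini-Hochberg adjustment over 19775 genes, or over 54675 probe sets, called below 0.05. Errors of levels are SDs and of differences moderated SEs. The fit was tested on simulated data first. P-values measure the spread between samples that the titles call biological replicates; the labels do not describe how cultures were kept apart.

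The members and lists were chosen with earlier results of these data known. Named were all 8 members, up to 3 called genes of each list with the largest change (or the one with the smallest p), and for each called member the 3 genes with the closest profile. Alternatives were a block for replicate number, median centring, quantile normalization, a filter on dim genes, other choices of probe set, a variance trend, array weights, each array left out and stricter thresholds. Figures were drawn with matplotlib 3.10.9.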

Additional observations from a re-analysis of the deposited data

Results flagged for a closer look

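A value was marked where 1 of the 4 arrays of a group lay far from the other 3, by Dixon's test at the 95% level. Chance marks about 1 in 20 groups, and 13 of 116 groups of arrays were marked. Values are log2 RMA values. SOCS1 was 8.04 in estradiol replicate 1 against 7.79 to 7.82 in the other estradiol arrays, on the side away from vehicle. Among the other probe sets of the family, a second one of SOCS6 was 4.31 in estradiol replicate 3 against 4.55 to 4.58, the third of SOCS6 was 3.35 in vehicle replicate 2 against 3.72 to 3.79, and a second of SOCS7 was 6.88 in vehicle replicate 2 against 7.09 to 7.12. Vehicle replicate 2 also stood apart for PIAS3 (6.71 against 6.67 to 6.68), MCL1 (11.04 against 11.15 to 11.16) and JUNB (7.39 against 7.4995 to 7.52). Estradiol replicate 1 stood apart for KIT (6.70 against 6.93 to 6.96) and CCND2 (8.58 against 8.72 to 8.72), and estradiol replicate 3 for UBE2F (10.88 against 10.96 to 10.97) and IL6 (6.91 against 6.77 to 6.79). FCGR2A was 7.46 in vehicle replicate 1 against 7.19 to 7.20, and PRPS1 was 10.50 in estradiol replicate 4 against 10.57 to 10.58.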

How the results depend on the processing

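The rise of SOCS1 passed the test under every alternative run. The number of members called higher was 1 except 2 with the filter on dim genes and with the variance trend, where SOCS7 was added. The number called lower, 2, was 0 with the replicate block, median centring, the probe set of largest variance, an adjusted p below 0.01 or a 1.5-fold limit, 1 with the mean of all probe sets, and 4 with the filter on dim genes or array weights, where SOCS3 and SOCS5 were added. Leaving out 1 array gave 0 to 4 lower and 1 to 1 higher. The calls over all genes moved too, from 3538 of 19775 to 4327 of 10046 with the filter. Of 19775 genes, 4370 were called with the variance trend and 4336 with array weights. With median centring 2841 were called, with the mean of all probe sets 3127 and with the probe set of largest variance 2863. Of probe sets of the family, 1 was called lower, against 0 with the replicate block, median centring, the stricter p or the fold limit, 5 with quantile normalization, the filter or the trend, 6 with array weights, and 0 to 4 without 1 array. With the fold limit 1 of the 2 called higher was left. Pathway genes numbered 13 higher and 11 lower, 9 higher and 7 lower at the stricter p, 6 higher and 2 lower with the fold limit, and 9 to 14 and 9 to 13 without 1 array. SOCS4 turned to −0.0034 with quantile normalization, −0.0315 with the mean of its probe sets, −0.0947 with the probe set of largest variance and −0.0210 without vehicle replicate 2; without 1 array it ran from −0.0210 to 0.0697. SOCS2 turned to 0.0691 and COQ4 to 0.16 with the probe set of largest variance, and COQ4 to 0.0178 with the mean of its probe sets. The causes were not tested. Same-numbered arrays had correlations of their deviations from the group means of −0.05, −0.21, 0.09 and 0.11, so the numbers did not pair the samples. With the replicate block, 2598 genes were called against 3538, CISH and SOCS2 had adjusted p = 0.128 and 0.0912, and SOCS1 kept its call. With 4 arrays a group the precision is limited, and no detection calls were used here.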
